A study of Mus musculus with 2 samples.

Results

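Potassium channel genes were taken as all genes whose symbol is Kcn followed by letters, a number and at most 1 further letter, without Kcnj1 and without the antisense RNA Kcnq1ot1. The pattern matched 93 symbols before Kcnj1 was left out, and 92 of the 32285 genes counted remained. Their transcripts were counted by single-nucleus RNA sequencing, which reads the 3' ends of RNA captured from nuclei in droplets, in 2 libraries of whole mouse kidneys. The first library held pooled male and female embryonic kidneys at E18.5 from mice with floxed Myc and Mycn alleles, labelled Mycf/f;Mycnf/f (no Cre), on a mixed strain background. The second held pooled male and female kidneys at P3, the third day after birth, from mice labelled Wild type on the C57BL/6J background, although the study's methods name a mixed background for both ages, so the strain at P3 differs between the sources. Each age was 1 library, so no comparison of conditions could be tested, and age, genotype, strain, library and the release of the counting software cannot be told apart.

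Potassium channels let potassium ions leave or enter cells and so set the resting voltage of the membrane. Voltage-gated alpha subunits open when the membrane depolarizes, calcium- and sodium-activated subunits open with a rise of these ions inside the cell, inward rectifiers and two-pore channels carry current near rest, and accessory subunits change the gating or the traffic of the others. In kidney tubules, channels of the basolateral membrane return the potassium brought in by the sodium pump, channels of the apical membrane secrete it, and in vascular muscle cells they govern contraction.

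After quality limits and removal of called doublets, 17776 nuclei with 56415055 unique molecular identifiers (UMIs, each counting 1 captured RNA molecule) were kept at E18.5 and 9788 nuclei with 46246564 UMIs at P3. A nucleus held a median of 2917.5 UMIs at E18.5 and 4054 at P3, 50 barcodes occurred in both libraries, and the class medians ran from 2310 to 3996 and from 2597 to 6345. All potassium channel genes were left out of the clustering, and clusters of nuclei were named by their likeness to lists of 8 markers, and each class name below, such as proximal tubule, stands for nuclei that resembled it. At E18.5, 12 classes of 81 to 4976 nuclei were named and at P3 11 classes of 66 to 3045 nuclei, with a nephron progenitor class and a ureteric tip class named only at E18.5 and an early nephron class only at P3, and 4995 and 3171 nuclei stayed unnamed. Levels are given in CPM, the UMIs of a gene or list summed over a class or zone and scaled to 1000000 UMIs of that class or zone. The summed level of a class's own list was highest in that class in 12 of 12 and 11 of 11 classes. These lists had also named the clusters, so such counts, here and for the zones below, are no independent check of the names. The interstitium, the stromal cells between the tubules, was split again into 5 zones at E18.5 and 4 at P3, and the own list led in 4 of 5 and 3 of 4 zones. The exception was the nephrogenic zone, whose list reached 1193 CPM there against 1979 in the mural zone at E18.5 and 448 against 1121 at P3. The leads of the cortical and medullary lists were narrow at E18.5, and those of the mural and papillary lists wider. The cortical list stood at 2145 in the cortical zone and 2017 in the mural zone. The medullary list stood at 5849 in the medullary zone and 5044 in the papillary zone. Most papillary nuclei, and most mural nuclei at E18.5, came from clusters that raised too few markers of the interstitium list. These clusters were added because they raised at least 5 of 8 zone markers, and without them the papillary zone at both ages and the mural zone at E18.5 could not be named. At P3 the added cluster that raised mural markers held 32 nuclei. The mural zone at P3 held 158 nuclei and could be named without the added clusters. The summed interstitium list stood at 2715 and 2474 CPM in the papillary zone against 3955 and 4143 in the whole interstitium. Parentheses hold exact 95% intervals, Poisson for levels, conditional binomial for ratios and binomial for shares, and cover counting error only, because nuclei of 1 library are not replicates.

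The promoters of 4 members are shown because the results below turn on these genes, Kcnd2 and Kcnd3 in the stroma, and Kcnj15 and Kcnj16 in the proximal tubule. They are the 250 bases before the annotated start in RefSeq, build GRCm38.p6, on the plus strand, at chr6:21215096-21215345, chr3:105451640-105451889, chr16:95257308-95257557 and chr11:110967783-110968032. Kcnj16 has 4 annotated starts, of which the first is shown. Capitals mark the dinucleotide CG, and the letters are otherwise in lower case.
Kcnd2: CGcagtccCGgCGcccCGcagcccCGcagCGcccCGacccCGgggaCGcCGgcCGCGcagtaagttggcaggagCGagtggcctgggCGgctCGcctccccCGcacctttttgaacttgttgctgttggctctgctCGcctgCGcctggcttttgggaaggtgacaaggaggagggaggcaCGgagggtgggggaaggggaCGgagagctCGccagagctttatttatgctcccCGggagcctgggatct
Kcnd3: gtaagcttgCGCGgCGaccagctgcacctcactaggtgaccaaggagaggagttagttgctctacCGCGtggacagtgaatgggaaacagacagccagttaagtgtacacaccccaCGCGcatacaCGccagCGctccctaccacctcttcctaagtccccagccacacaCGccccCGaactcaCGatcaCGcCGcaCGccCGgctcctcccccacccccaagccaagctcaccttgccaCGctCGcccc
Kcnj15: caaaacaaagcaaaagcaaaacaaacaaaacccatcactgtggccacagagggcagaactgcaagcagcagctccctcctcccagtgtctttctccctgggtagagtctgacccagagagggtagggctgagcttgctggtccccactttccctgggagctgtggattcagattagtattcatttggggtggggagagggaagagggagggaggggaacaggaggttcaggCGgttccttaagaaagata
Kcnj16: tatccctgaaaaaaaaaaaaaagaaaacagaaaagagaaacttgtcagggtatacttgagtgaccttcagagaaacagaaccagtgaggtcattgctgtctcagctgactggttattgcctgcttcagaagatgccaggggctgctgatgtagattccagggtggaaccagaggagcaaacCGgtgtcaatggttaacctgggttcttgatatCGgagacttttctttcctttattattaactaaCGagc
The windows of the stromal genes held 22 and 18 CG, and those of the tubule genes 1 and 3. Of 32851 windows of the same length over all genes, 14.8% held as many CG as Kcnd2, 21.7% as many as Kcnd3, 92.1% as many as Kcnj15 and 71.0% as many as Kcnj16. The median was 6 CG over all windows and 7.5 over the 92 windows of the 67 members that matched the table.

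Together the 92 members held 130915 UMIs at E18.5 and 178177 at P3, or 2321 and 3853 CPM. Of these genes, 56 reached 50 UMIs at E18.5 and 53 at P3, 34 stayed below 50 at both ages, and Kcnk15 and Kcna10, the latter a voltage-gated channel known from the kidney, had no UMI in any kept nucleus. The 40 voltage-gated subunits carried most of the sum, at 1459 CPM at E18.5 and 2556 at P3. Calcium- or sodium-activated channels (8 genes) stood at 359 and 507, accessory subunits (16 genes) at 236 and 319, inward rectifiers (14 genes) at 186 and 363, and two-pore channels (14 genes) at 80.9 and 108. Levels moved with gene length. Members had a median gene length of 32.2 kb against 12.3 kb over all genes, 23 of them exceeded 100 kb, and across the 66 members with 50 UMIs over both libraries the level and the gene length had a Spearman correlation of 0.65 at E18.5 and 0.67 at P3, against 0.40 and 0.49 over 18539 genes. These correlations run across genes, which are not independent replicates, and are given as a description.

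**Figure D1:**
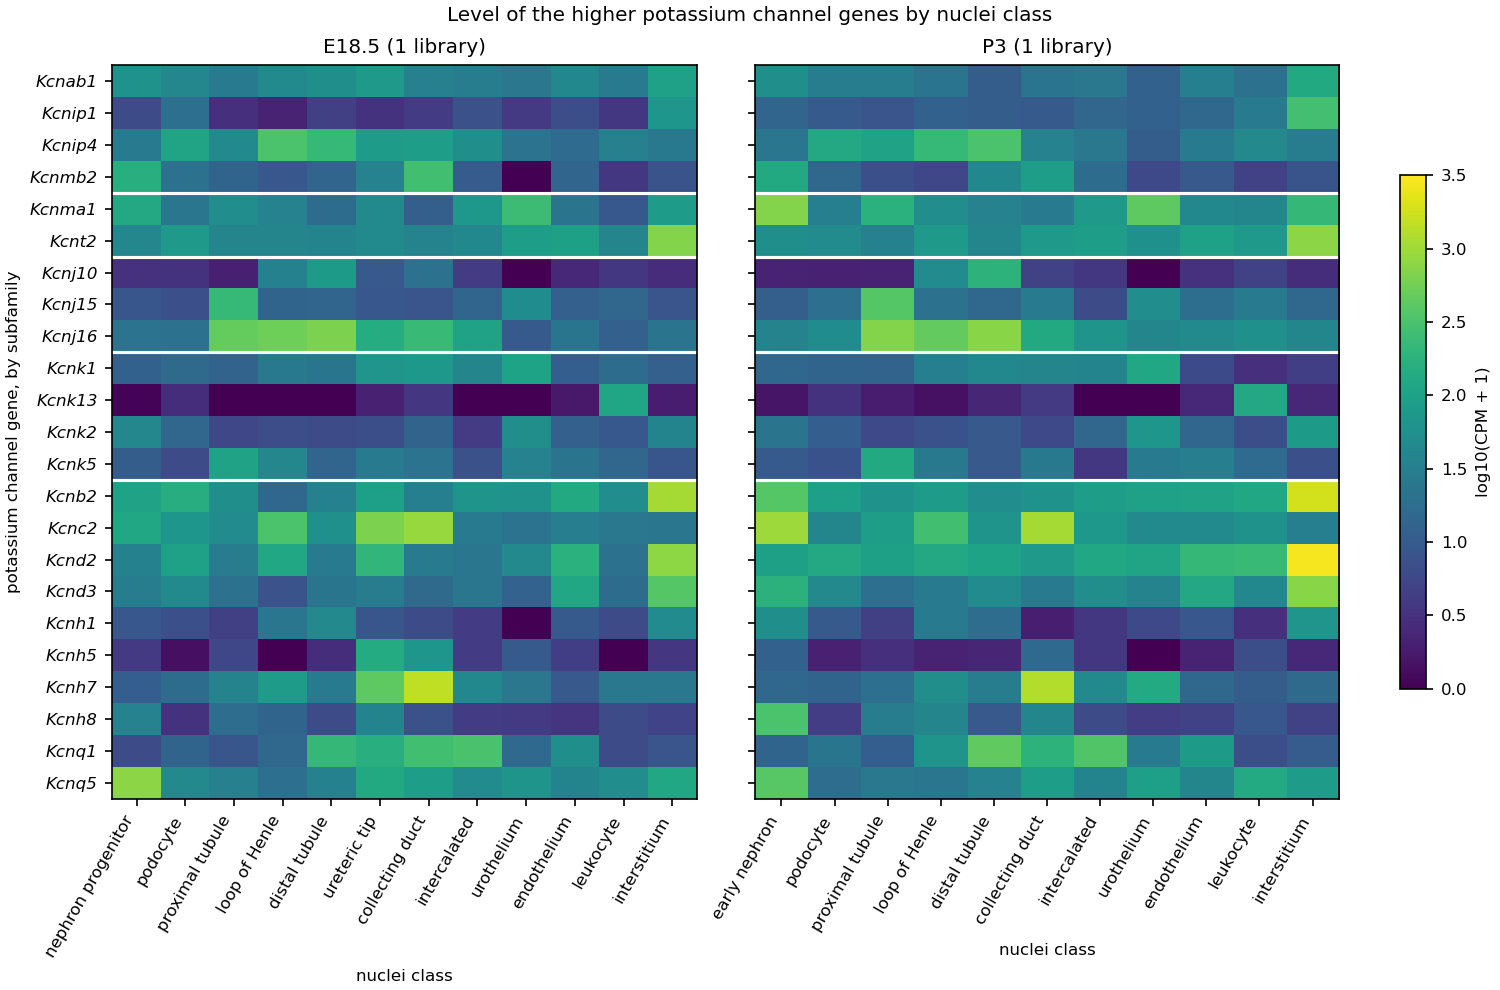
Levels of 23 members in the named classes of nuclei at E18.5 and P3, as log10 of CPM plus 1 (colour). Kcnd2 stood at 801 in the interstitium at E18.5 and at 2853 at P3, and Kcnk13 above 2.92 only in leukocytes at both ages.

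The interstitium was the leading class for more members than any other. A class was counted as leading when its level was at least 2-fold above the next named class, for genes with at least 50 UMIs in named nuclei. At E18.5, 25 of 54 members (46.3%) had such a class, where 17.8% of all genes did, and at P3 28 of 49 (57.1%), where 22.3% did. When the lower bound of the interval also had to reach 2, 11 and 13 members remained under the rule, against 8.52% and 11.3% of all genes. Of the 25 and 28 leads counted without that bound, the interstitium held 7 at E18.5 (Kcnb2, Kcnt2, Kcnd3, Kcnk3, Kcnd2, Kcnj8 and Kcnip1) and 11 at P3, when Kcnab1, Kcnh2 and Kcnmb1 were among those added, of which Kcnh2 and Kcnmb1 had at most 3 UMIs in the next class. The interstitium led by 2-fold for 1.94% of all genes at E18.5 and 2.7% at P3. The lower bounds at E18.5 were 1.44 for Kcnk3 and 0.969 for Kcnj8, so these leads did not meet the stricter bound. Among zones, 7 of 30 members (23.3%) had a leading zone at E18.5, against 4.75% of all genes, and 14 of 25 (56%) at P3, against 8.17%. A medullary zone was among those compared at E18.5 only. With the lower bound at 2 the zone counts were 5 and 8, against 1.94% and 3.8%. The papillary zone, the stroma at the tip of the medulla, held 4 of the 7 zone leads at E18.5 (Kcnd2, Kcnq1, Kcnip1 and Kcnma1) and 7 of the 14 at P3 (these 4 with Kcnd3, Kcnip3 and Kcnn2), where it led for 1.08% and 2.97% of all genes. The cortical zone led for Kcnk2 at both ages, the mural zone for Kcnab1 at both, and the nephrogenic zone for Kcnh7 at both, there at only 50.2 and 29.9 CPM. At P3 the mural zone also led for Kcnq5, the nephrogenic zone for Kcnh1 (58.6, with 179 in an unnamed stromal cluster) and Kcnmb4, and the cortical zone for Kcnh2, whose ratio to the mural zone turned to 0.955 when size factors were used. Over the 10 classes named at both ages, 32 of 43 members (74.4%) kept their highest class, where 51.2% of all genes did, and over the 4 zones named at both ages 14 of 23 (60.9%), where 44.6% did. Of 864 pairs of classes or zones compared over the members, 27 had ratios with intervals on opposite sides of 1 at E18.5 and P3, where 0.878% of such pairs over all genes did, and 6 of these were also at least 2-fold both ways, where 0.0727% were.

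Summed over all members, the level in the interstitium was 3813 CPM at E18.5 and 7498 at P3, with Kcnb2 as the largest contributor at E18.5 (28.3%) and Kcnd2 at P3 (38.1%). In the papillary zone it was 9674 and 20473, with Kcnd2 giving 37.7% and 62.8%. Without Kcnd2, Kcnb2 and Kcnt2 the interstitium stood at 1230 (1213 to 1247) and 2067 (2043 to 2091). The collecting duct stood at 3887 at E18.5, near the interstitium, and at 3411 at P3, when the early nephron class had 3726. In the collecting duct Kcnd2, Kcnb2 and Kcnt2 stood at 27.4, 31.6 and 35.8 CPM at E18.5, and at 78.0, 62.4 and 76.0 at P3. Without these genes the collecting duct thus stood above the interstitium at both ages. The lowest sums were those of leukocytes at E18.5 (629) and podocytes at P3 (862).

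**Figure D2:**
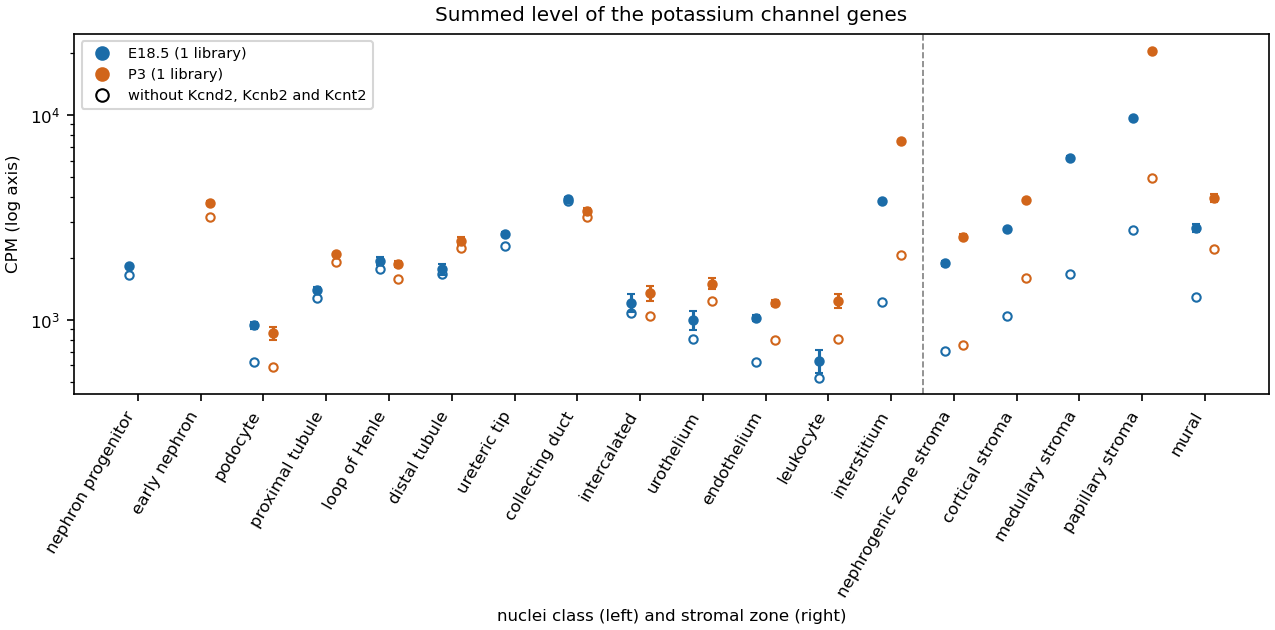
Summed level of the 92 members in each named class and stromal zone at E18.5 and P3 (CPM on a log axis, with exact 95% Poisson intervals; open circles leave out Kcnd2, Kcnb2 and Kcnt2). The papillary zone stood at 9674 and 20473, above every class at its age.

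Among voltage-gated subunits, the A-type channel genes Kcnd2 and Kcnd3 and their cytoplasmic partner Kcnip1 were highest in the papillary zone at both ages. A-type channels pass a brief outward current that closes again during depolarization. Kcnd2 (ENSMUSG00000060882, chr6:21215503-21729805, plus strand) had 3650.3 (3550.3 to 3752) CPM in the papillary zone at E18.5, 1004 in the medullary zone, 599.5 in the mural zone, 459.5 in the nephrogenic zone and 299.6 in the cortical zone. At P3 it had 12850.1 (12639 to 13064) in the papillary zone, 678 in the mural zone, 653 in the nephrogenic zone and 365 in the cortical zone. The papillary zone thus stood 3.63 (3.47 to 3.81) times above the next zone at E18.5 and 19.0 (17.0 to 21.2) times at P3. The next zone was the medullary one at E18.5, and no medullary zone was named at P3, so these ratios rest on unlike sets of zones. At P3 an unnamed stromal cluster, described below, lay between the papillary zone and the other named zones. Of 40858 interstitial UMIs of Kcnd2 at P3, the papillary zone held 14129 and the cortical zone 904. Most of the others lay in that cluster and further unnamed stromal clusters, which were not among the zones compared. At P3 all 154 papillary nuclei carried a UMI of Kcnd2, and 99.4% after each nucleus was thinned to 1000 UMIs, against 99.0% and 86.1% at E18.5. In the proximal tubule, which served as a class outside the stroma, the thinned shares were 2.64% and 9.48% and the levels 28.9 and 95.1. Levels of Kcnd2 in all classes other than the interstitium ranged at E18.5 from 18.9 to 197, and at P3 from 78.0 to 238, and what part of them came from free RNA was not tested. Thinning kept 4963 of 4976 interstitial nuclei at E18.5 and 3038 of 3045 at P3. Between the ages the papillary level of Kcnd2 differed by a factor of 3.52 (3.41 to 3.64), and the cortical level by 1.22 (1.11 to 1.34). The papillary zone is thus where the ages stood furthest apart for this gene among the 4 zones named at both, while the mural levels, 599.5 and 678, lay close together. The mural level at P3 joined unlike clusters, however. A cluster of 126 nuclei stood at 881 (785 to 985) and a cluster of 32 nuclei at 90.8 (45.3 to 162).

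Kcnd3 (ENSMUSG00000040896, chr3:105452330-105674002, plus strand) also stood highest in the papillary zone, with 1228 (1171 to 1288) in the papillary zone, 739 in the medullary zone and 349 in the cortical zone at E18.5. At P3 it stood at 1879.9 (1799.7 to 1963) in the papillary zone and 657 in the cortical zone. Of 10760 interstitial UMIs of Kcnd3 at P3, these zones held 2067 and 1627. Most of the others lay in unnamed stromal clusters, which were not among the zones compared. Mural and nephrogenic stroma had far less, between 25.1 and 99.6 over both ages. The thinned share of papillary nuclei with Kcnd3 was 62.7% and 70.8%, that of proximal tubule nuclei 1.21% and 2.20%. Kcnip1 (ENSMUSG00000053519, chr11:33629339-33993152, minus strand), a calcium-binding subunit that raises A-type current, had 480.3 (444 to 518) and 886 (831 to 943) CPM in the papillary zone, 4.03 (3.52 to 4.62) times the next zone at E18.5 and 10.8 (9.29 to 12.6) times at P3. Here too the zones at P3 lacked a medullary one, and the unnamed stromal cluster described below lay between the papillary zone and the other named zones. Of 4055 interstitial UMIs of Kcnip1 at P3, the papillary zone held 974 and the cortical zone 203. In the cortical zone Kcnip1 stood at 4.15 at E18.5 and 81.9 at P3, a ratio of 19.7 (11.3 to 37.7), although only 4.63% of thinned cortical nuclei carried it at P3. Markers of glia or neurons, which also use A-type channels, summed to 30.4 CPM in the papillary zone at E18.5 with 3 of 8 at 0, and to 13.6 at P3 with 5 of 8 at 0. The range of that list over zones was 24.8 to 41.5 and 12.1 to 89.0, and the highest value at P3 was that of the mural zone. With called doublets kept, the papillary lead of Kcnd2 was 8.07 at E18.5 and 9.56 at P3, and that of Kcnip1 at E18.5 was 126. In that setting the papillary zone at E18.5 held 491 nuclei and the medullary zone 85, with Ndc80 and Ccnf among its leading genes. A cluster of 1172 nuclei that raised Zfp536 and Cldn11 stayed unnamed there, so the E18.5 leads with and without doublets rest on unlike zones.

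**Figure D3:**
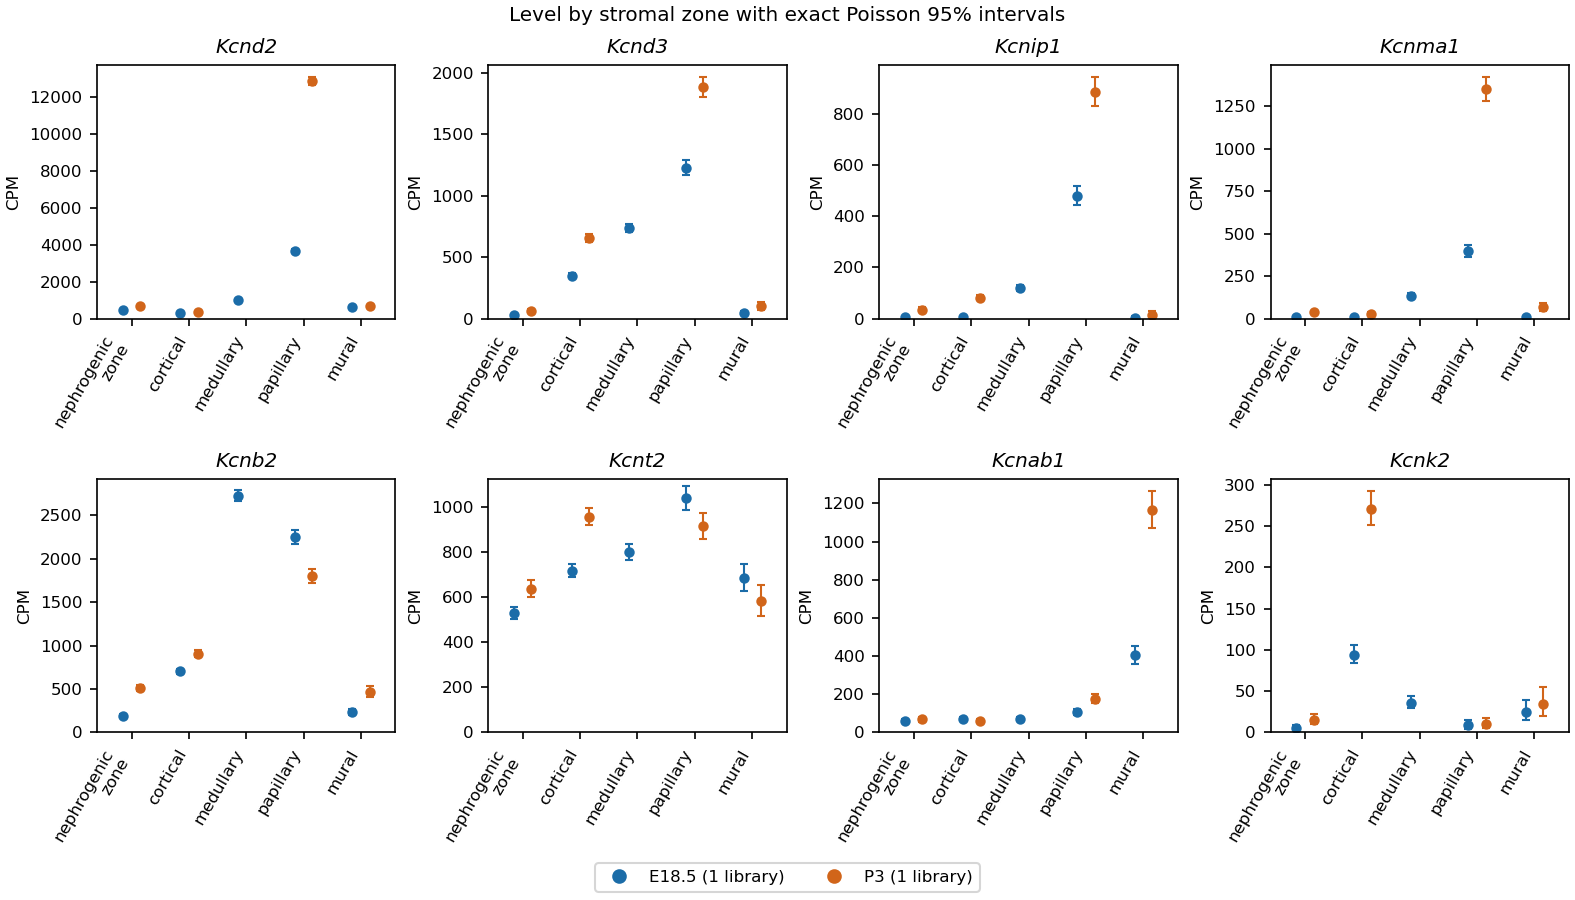
Levels of members in the stromal zones at E18.5 and P3 (CPM, axes starting at 0, with exact 95% Poisson intervals). Kcnd2, Kcnd3, Kcnip1 and Kcnma1 stood highest in the papillary zone, Kcnk2 in the cortical zone and Kcnab1 in the mural zone at both ages.

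Kcnb2 (ENSMUSG00000092083, chr1:15287254-15723750, plus strand), a delayed rectifier that gives a lasting outward current on depolarization, was highest in the interstitium, as Kcnd2 and Kcnd3 were, but was shared between the medullary and papillary zones. In the interstitium it stood at 1079.7 (1064 to 1096) at E18.5, against 1795 (1773 to 1817) at P3, 7.22 and 4.72 times the next class. Its highest zone at E18.5 was the medullary one at 2721, followed by the papillary zone at 2247 and the cortical zone at 705. This order of the leading zones turned when called doublets were kept (medullary to papillary ratio 0.624) and with 20 nearest neighbours (0.769). With doublets kept the medullary zone held only 85 nuclei, as given above. At P3 the papillary zone had 1799 and the cortical zone 907, while an unnamed stromal cluster of 381 nuclei, led by Vwc2 and Nrxn3 and raising the smooth muscle genes Myh11, Acta2, Cnn1 and Lmod1, had 3166. That cluster also raised 3 markers of the medullary list. Vwc2 and Nrxn3 were among the leading genes of the medullary zone at E18.5 as well. Kcnd2 stood at 4970 and Kcnip1 at 673 in the same unnamed nuclei, below the papillary zone and above the other named zones. No medullary zone was named at P3 in the main clustering, so the medullary value has no partner there. With 20 nearest neighbours a medullary zone of 728 nuclei was named at P3, and its levels are not given here. In the nephrogenic zone Kcnb2 was 192 at E18.5 and 506 at P3, a ratio of 2.63 (2.37 to 2.92).

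Among channels opened by sodium or calcium, Kcnt2 was spread over the whole stroma. Kcnt2 (chr1:140246158-140612067, plus strand), a sodium-activated channel, had 702 (689 to 715) in the interstitium at E18.5, against 783 (768 to 797) at P3, 7.19 and 7.94 times the endothelium, the next class. Over zones it ranged only from 530.2 to 1040.2 at E18.5 and, at P3, from 583 to 958, so no zone led by 2-fold. Kcnt2 thus differed from the A-type genes in being nearly even among zones. Its relative Kcnt1 had 23 and 37 UMIs in all. Kcnma1 (chr14:23289431-24014491, minus strand), the large-conductance calcium-activated channel, stood highest in the papillary zone, which held 396 (363 to 430.3) at E18.5, against 1349.7 (1282 to 1420.1) at P3, 2.94 (2.56 to 3.37) and 20.6 (14.4 to 30.4) times the next zone. No medullary zone was named at P3, so these ratios rest on unlike sets of zones. Of 3097 interstitial UMIs of Kcnma1 at P3, the papillary zone held 1484 and the cortical zone 72. Many of the others lay in unnamed stromal clusters, which were not among the zones compared. The 2 papillary values differed by a factor of 3.41 (3.09 to 3.77). The small-conductance channel Kcnn2 was also highest in the papillary zone, at 18.8 and 81.9, a ratio of 4.35 (2.79 to 7.02), and at P3 that zone stood 7.80 (4.99 to 12.6) times above the next. Kcnq1, described with the tubule below, also led there at a low level of 18.8 and 25.5, and Kcnip3, a further partner of A-type channels outside the rule for named genes, led at P3 at 58.2. A cluster of 13 smooth muscle-like nuclei at P3 had 2482 (2073 to 2947) CPM of Kcnma1, which 12 of its nuclei carried, but was under the minimum of 50 nuclei for a zone. Outside the stroma Kcnma1 reached 247 and 423 in urothelium, 707 in early nephron nuclei at P3, and 51.8 and 171 in the proximal tubule, a ratio of 3.30 (2.85 to 3.83). Its accessory subunit Kcnmb1, known from smooth muscle, had 59 and 93 UMIs in all, most of them in the interstitium at 2.56 and 6.01. All 10629 bases of Kcnmb1 lie within Kcnip1 on the opposite strand, and reads of the pair cannot be told apart if strand was not used in counting. Kcnn4, the intermediate-conductance channel, stood highest in the ureteric tip at E18.5, at 18.4 (13.6 to 24.3), and no named class passed 4.88 at P3. No tip class was named at P3, so the tip value has no partner there.

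Kcnk2 and Kcnj8 stood highest in the cortical and the mural zone. Kcnk2, a two-pore channel opened by membrane stretch, had 94.2 (83.8 to 106) in the cortical zone at E18.5, against 271 (251 to 293) at P3, 2.60 (2.06 to 3.32) and 8.0 (4.89 to 14.1) times the next zone, and a ratio between the ages of 2.88 (2.51 to 3.31). The other zones ranged at E18.5 from 5.58 to 36.2, and at P3 from 10.0 to 33.9. The thinned share of cortical nuclei with Kcnk2 was 8.18% and 21.8%, against 0.290% and 0.930% of nephrogenic zone nuclei. In the class comparison at E18.5, Kcnk2 stood at 52.3 in urothelium, 40.1 in progenitors and 36.5 in the whole interstitium. The urothelium value rested on 18 UMIs in 7 nuclei, and without 1 nucleus that held 33.3% of them it was 35.2. Progenitors still stood above the interstitium, so the zone of Kcnk2 was seen only after the interstitium was split. Kcnk3, another two-pore channel, was low throughout and highest in the interstitium (3.65 and 6.01). Kcnj8, the pore of the ATP-sensitive channel of vascular mural cells, was highest in the mural zone at 95.3 (74.7 to 119.9) and 36.0 (21 to 57.7), with the cortical zone at 62.3 and 17.4. The mural zone stood less than 2-fold above the next at both ages. Between the ages Kcnj8 differed by 0.378 (0.209 to 0.647) in the mural zone, 0.279 (0.195 to 0.389) in the cortical zone, 0.428 (0.227 to 0.769) in the papillary zone and 0.702 (0.465 to 1.04) in the nephrogenic zone, where the interval includes 1. Its regulatory partner Abcc9, also highest in the interstitium, stood at 201 CPM there at E18.5 and at 93.4 at P3.

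Kcnab1, a cytoplasmic beta subunit of voltage-gated channels, stood highest in the mural zone, which holds the cells around vessels, at 404 (359.8 to 451) CPM at E18.5, against 1165 (1069.8 to 1267) at P3. The papillary zone was next, with 106 and 176. At P3 most of this came from few nuclei. The mural zone was made of a cluster of 126 nuclei and a cluster of 32 nuclei led by Ren1, the gene of the hormone renin that juxtaglomerular cells secrete, and Kcnab1 was left out of the clustering. The 32 nuclei held 510 UMIs of Kcnab1, or 4208 (3851 to 4590) CPM, in 30 of 32 nuclei. The 126 nuclei held 40, or 114 (81.4 to 155) CPM, in 23 nuclei, which is below the papillary value, so the mural lead at P3 rested on the 32 nuclei. Ren1 stood at 1403 (1199.7 to 1630.1) and 48.5 (28.2 to 77.6) CPM in the same clusters. The mural zone at E18.5 was a single cluster of 238 nuclei with 270.4 CPM of Ren1. A further E18.5 cluster of 14 nuclei raised Rgs5, Notch3 and Ren1, with Kcnab1 among its leading genes. It raised as many smooth muscle markers, stayed unnamed and was left out of the mural level. With called doublets kept, a cluster of 24 nuclei led by Ctnna3, Ren1 and Kcnab1 was named mural at E18.5. The mural levels of Kcnab1 at E18.5 and P3 thus rest on unlike sets of nuclei. After thinning, 61.1% (35.7 to 82.7) of 18 mural nuclei with Ren1 carried Kcnab1 at E18.5 and 16.1% (11.4 to 21.6) of 218 without it, and at P3 72.7% (39.0 to 94.0) of 11 and 22.2% (15.7 to 29.9) of 144. Without thinning the shares were 57.5% and 30.8% at E18.5 and 73.7% and 28.1% at P3. This split was chosen after the clusters were seen, and 169626 bases of Kcnab1 overlap an antisense gene, A330015K06Rik.

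Kcnq5, which gives a slow voltage-gated current, marked the nephron progenitors. Kcnq5 (chr1:21398403-21961942, minus strand) had 768 (752 to 785) CPM there at E18.5, 5.81 (5.22 to 6.48) times the ureteric tip, and a UMI in 59.7% of nuclei (38.9% after thinning), against 7.46% and 2.09% in the proximal tubule. No progenitor class was named at P3. An unnamed P3 cluster of 775 nuclei led by Eya1 and Bmper had 965 of Kcnq5, above the early nephron class at 390.4. The lead of the early nephron class over leukocytes (2.81) turned to 0.808 when called doublets were kept. In the mural zone at P3 Kcnq5 was 333, but 1 nucleus held 35.7% of its UMIs and the level without it was 219. Kcnh8, a voltage-gated gene of the ether-a-go-go family, had 318 (292 to 346) in early nephron nuclei at P3, 7.95 (5.78 to 11.2) times the collecting duct, and at E18.5 was at most 36.8 in a named class, the ureteric tip, and 73.1 in an unnamed cluster of 958 nuclei. No early nephron class was named at E18.5, so the early nephron value has no partner. Kcnk10, a two-pore channel related to Kcnk2, was highest in progenitors at E18.5 (12.4) and in early nephron nuclei at P3 (29.5) among named classes, while an unnamed E18.5 cluster of 1198 nuclei that raised the early nephron markers Lhx1, Jag1, Dll1 and Pax8 had 21.7. The accessory subunits of the large-conductance channel, Kcnmb2 and Kcnmb4, stood at 158 and 26.6 in progenitors and at 131 and 64.3 in early nephron nuclei, where Kcnma1 stood at 707, while the highest class of Kcnmb2 at E18.5 was the collecting duct (275, and 91.6 at P3).

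Several members were highest in the ureteric lineage, which forms the collecting system. Kcnh7 (chr2:62693414-63184287, minus strand), of the ether-a-go-go-related family, had 1457 (1403 to 1512) in the collecting duct at E18.5, against 1248 (1180.3 to 1318) at P3, 3.38 (3.15 to 3.62) times the ureteric tip and 9.24 (7.39 to 11.7) times the urothelium. No tip class was named at P3, so these ratios rest on unlike sets of classes. A UMI of Kcnh7 was found in 88.3% and 88.0% of collecting duct nuclei (66.7% and 50% after thinning), and in 2.86% and 1.36% of thinned proximal tubule nuclei. Kcnc2, a fast delayed rectifier, was shared more widely: 905 in the collecting duct, 646 in the ureteric tip and 319.6 in the loop of Henle at E18.5, and 1066 in the collecting duct, 975 in early nephron nuclei and 278 in the loop at P3. Its collecting duct to early nephron ratio at P3 turned to 0.514 with called doublets kept. Kcnh5 stood at 143 in the ureteric tip and 68.9 in the collecting duct at E18.5, against 14.6 in the collecting duct at P3. An unnamed P3 cluster of 265 nuclei that raised markers of both had 79.99 of Kcnh5. Kcnj3, a G protein-gated inward rectifier, was also highest in the tip at E18.5, with 80 of its 150 UMIs, and had 31 UMIs in all at P3, when no tip class was named. Kcnk1, a two-pore channel, was highest in urothelium at both ages (108 and 124), with 71.6 and 38.0 in the collecting duct.

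Kcnq1, a voltage-gated channel that accessory Kcne subunits slow or hold open, was high in 3 distal classes. At E18.5 the intercalated cells had 313 (254 to 381), the collecting duct 277 (254 to 301) and the distal tubule 211 (174 to 253), and at P3 the distal tubule had 444 (397 to 496), the intercalated cells 349.6 (292 to 415) and the collecting duct 184 (159 to 212). The intervals of the intercalated and collecting duct levels overlapped at E18.5, and those of the distal and intercalated levels at P3, where clusters by the Leiden method turned the ratio to 0.798. Between the ages the distal level differed by a factor of 2.11 (1.70 to 2.63). Kcne1 followed at a low level, with 4 UMIs at E18.5 and 37.7 (24.8 to 54.9) CPM at P3 in the distal tubule. Kcne3 had 41 and 24 UMIs in all. The Kcnq1 locus shares 93092 bases with the antisense RNA Kcnq1ot1.

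The inward rectifiers Kcnj16, Kcnj10 and Kcnj15 were highest in the tubules, unlike Kcnj8 and Kcnj3. They encode basolateral channels, of which Kcnj16 works mainly with a partner such as Kcnj10 in the distal tubule or Kcnj15 in the proximal tubule. Kcnj16 (ENSMUSG00000051497, chr11:110968033-111027968, plus strand) had 639.6 (574 to 710.3) in the distal tubule, 538 (491 to 589) in the loop of Henle and 477 (456 to 499) in the proximal tubule at E18.5. At P3 the distal tubule had 765 (702 to 832), the proximal tubule 714 (697 to 731) and the loop 451 (425 to 479). The proximal and distal intervals overlapped at P3, and the order turned with the Leiden method (distal to proximal ratio 0.751). The collecting duct stood at 232 and 135. Between the ages the proximal level differed by 1.5 (1.42 to 1.57) and the loop level by 0.839 (0.752 to 0.936). Nuclei with Kcnj16 made up 68.7% and 88.1% of the proximal tubule (31.5% and 44.9% after thinning), and the thinned share in podocytes, which stand outside the tubule, was 2.11% and 3.70%. Kcnj15 (ENSMUSG00000062609, chr16:95257558-95300260, plus strand) was highest in the proximal tubule, at 221 (206 to 236) and 379 (367 to 392), 4.47 (2.77 to 7.70) and 7.52 (5.29 to 11.1) times the urothelium, with all other classes between 5.34 and 27.3. The proximal levels differed by 1.72 (1.60 to 1.85). The whole of Kcnj15 is overlapped by an antisense gene, Gm31641. Kcnj10 (chr1:172341210-172374085, plus strand) was highest in the distal tubule, at 78.8 (57.0 to 106) and 180.1 (150.4 to 214), 2.39 (1.46 to 3.97) and 3.76 (2.90 to 4.88) times the loop, with a ratio between the ages of 2.29 (1.61 to 3.31). The proximal tubule held 1.02 and 1.14.

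**Figure D4:**
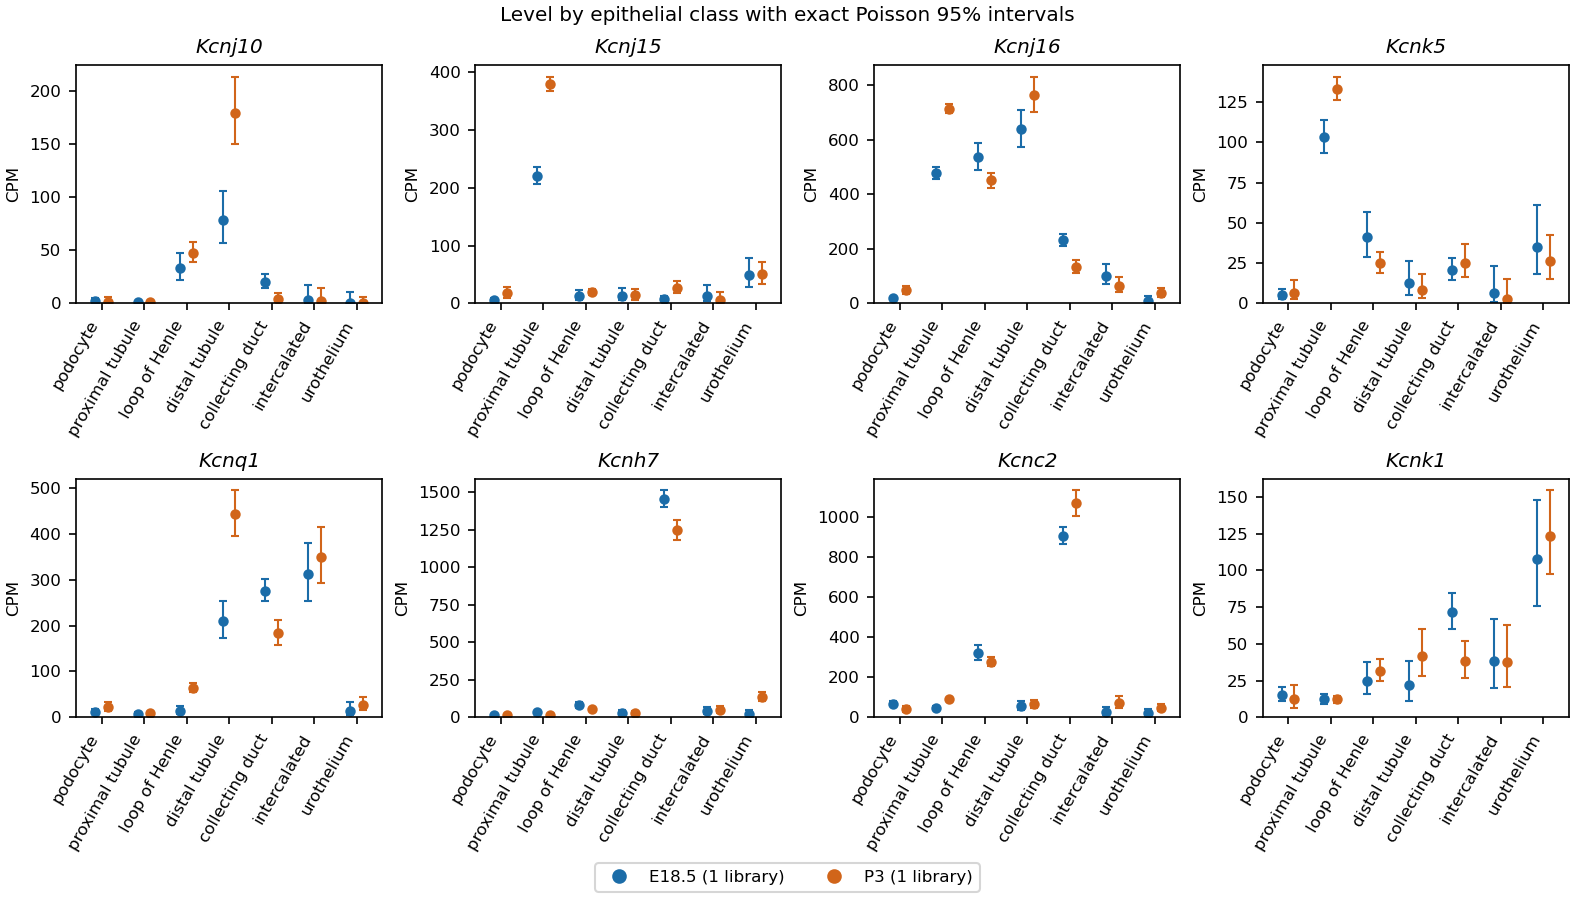
Levels of members in epithelial classes at E18.5 and P3 (CPM, axes starting at 0, with exact 95% Poisson intervals). Kcnj15 stood apart in the proximal tubule at 221 and 379, and Kcnh7 in the collecting duct at 1457 and 1248.

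The proximal tubule also led for the two-pore channel Kcnk5, a basolateral channel that opens at alkaline pH, at 103 (93.5 to 114) and 133 (126 to 141), 2.52 (1.79 to 3.65) times the loop at E18.5 and 4.33 (3.53 to 5.38) times the endothelium at P3. Kcnh4, a voltage-gated gene known mainly from brain, had 7 UMIs in the proximal tubule at E18.5 and 146 at P3, or 1.78 (0.714 to 3.66) and 15.2 (12.8 to 17.8) CPM. All other classes at P3 lay at or below 1.98. Kcnip4, an accessory subunit of A-type channels and the longest member at 1135 kb, was highest in the loop at E18.5 (326, distal tubule 222) and in the distal tubule at P3 (318, loop 220.3), with 393 in an unnamed P3 cluster of 286 nuclei. The age ratio of Kcnip4 was 2.26 (1.92 to 2.66) in the proximal tubule and 0.675 (0.583 to 0.782) in the loop. Kcnn2 had 43.2 and 42.5 in the loop, its highest class at both ages.

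Leukocytes were the highest class for 3 members at each age, and the endothelium for 3 at E18.5 and 2 at P3. Kcnk13, a two-pore channel known from microglia, had 116 (84.0 to 156) in leukocytes at E18.5, against 129 (99.5 to 164) at P3, 44.1 (17.5 to 143) and 44.1 (14.4 to 219) times the next class, and thinned shares of 10.4% and 9.14% against 0.0806% and 0.0658% in the interstitium. Kcnab2, another beta subunit, reached 41.7 (25.8 to 63.7) in leukocytes at P3, 7.85 (3.45 to 19.5) times the next class, and 10.8 (2.94 to 27.7) at E18.5. Kcnk6, a two-pore channel, stood at 10.6 and 8.16 in endothelium and 8.10 and 11.9 in leukocytes, with overlapping intervals. Kcnq3, a voltage-gated gene, appeared to lead in intercalated cells at E18.5 (63.9), but 13 of its 20 UMIs there lay in 1 nucleus and the level without it was 22.6. At E18.5 a single nucleus held over 25% of the UMIs of the highest class for 6 of 54 members, and at P3 for 2 of 49.

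Over all kept nuclei, 9 members were at least 2-fold higher at P3 and 8 at least 2-fold lower, among 66 with at least 50 UMIs over both libraries. Of all genes under the same rule 5.17% were higher and 10.4% lower. The median ratio was 1.22 over the members and 0.925 over all genes. The ratio was 8.08 (5.24 to 13.0) for Kcnh4 and 3.73 (3.51 to 3.97) for Kcnj15. It was 4.07 (3.83 to 4.33) for Kcnip1, 3.51 (3.45 to 3.57) for Kcnd2, 2.12 (2.05 to 2.20) for Kcnma1 and 2.02 (1.96 to 2.07) for Kcnd3. The others above 2 were Kcnj16 at 2.28 (2.21 to 2.35) and, among those outside the rule for named genes, Kcnj6. Of the 7 named ones, 3 were thus highest in tubules and 4 in the papillary stroma. The lower ones were Kcnj3 at 0.252 (0.165 to 0.373), Kcnj8 at 0.275 (0.240 to 0.313), Kcne1l at 0.410 (0.280 to 0.588), Kcnj2 at 0.442 (0.303 to 0.634) and Kcnk10 at 0.473 (0.391 to 0.571), with Kcne4 and Kcnj12 among those outside the rule. Of these, Kcnj2 is an inward rectifier and Kcne1l an accessory subunit, and neither exceeded 5.40 CPM in any named class. These ratios mix levels within classes with the shares of the classes: the proximal tubule made up 5.12% of kept nuclei at E18.5 and 13.5% at P3, and within it Kcnj15 differed by 1.72 and Kcnj16 by 1.5. When each class named at both ages was weighted equally, the ratio of Kcnk10 turned to 1.73.

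Within the interstitium, 8 of 46 members were at least 2-fold higher at P3, where 2.56% of all genes were, and 4 were lower, where 13.2% were. The summed list of 8 smooth muscle markers in the interstitium stood at 612 CPM at E18.5 and 1003 at P3, with none of the 8 at 0, and in the papillary zone at 965 and 723, and its part in these ratios was not tested. The ratio was 4.22 for Kcnip1, 3.56 for Kcnd2, 2.61 for Kcnma1, 2.21 for Kcnn2 and 2.15 for Kcnk2. It was 2.45 (1.89 to 3.19) for Kcnh2 and 2.35 (1.61 to 3.48) for Kcnmb1, and Kcnn3, outside the rule, was the eighth. The lower ones were Kcnk1 at 0.319 (0.228 to 0.440), Kcnj8 at 0.323 (0.273 to 0.380), Kcnj2 at 0.351 (0.183 to 0.637) and Kcne1l at 0.453 (0.242 to 0.812). Kcnh2, a fast-activating voltage-gated channel of the ether-a-go-go-related family, stood at 5.36 and 13.1, and its relative Kcnh1 at 48.1 and 65.4. Within the papillary zone, 4 of 17 members were higher, where 2.79% of all genes were, namely Kcnn2, Kcnd2, Kcnma1 and Kcnip3, and Kcnj8 was lower at 0.428 (0.227 to 0.769), where 12.5% were. Kcnd3 differed there by 1.53 (1.43 to 1.63), Kcnip1 by 1.84 (1.67 to 2.04) and Kcnb2 by 0.801 (0.756 to 0.847). Over all kept nuclei the ratios moved with gene length: the median over all genes was 0.725 under 10 kb and 1.29 over 300 kb, with a Spearman correlation of 0.40 across genes. Over the members the correlation was 0.25, and the medians were 0.683 under 10 kb, 1.17 from 10 to 30 kb, 1.32 from 30 to 100 kb, 1.12 from 100 to 300 kb and 1.40 over 300 kb. The 13 members over 300 kb include Kcnd2 (514 kb), Kcnma1 (725 kb) and Kcnip1 (364 kb), whose ratios were above that median. The deposited matrices came from different releases of the counting software, and its part in these ratios was not tested.

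**Figure D5:**
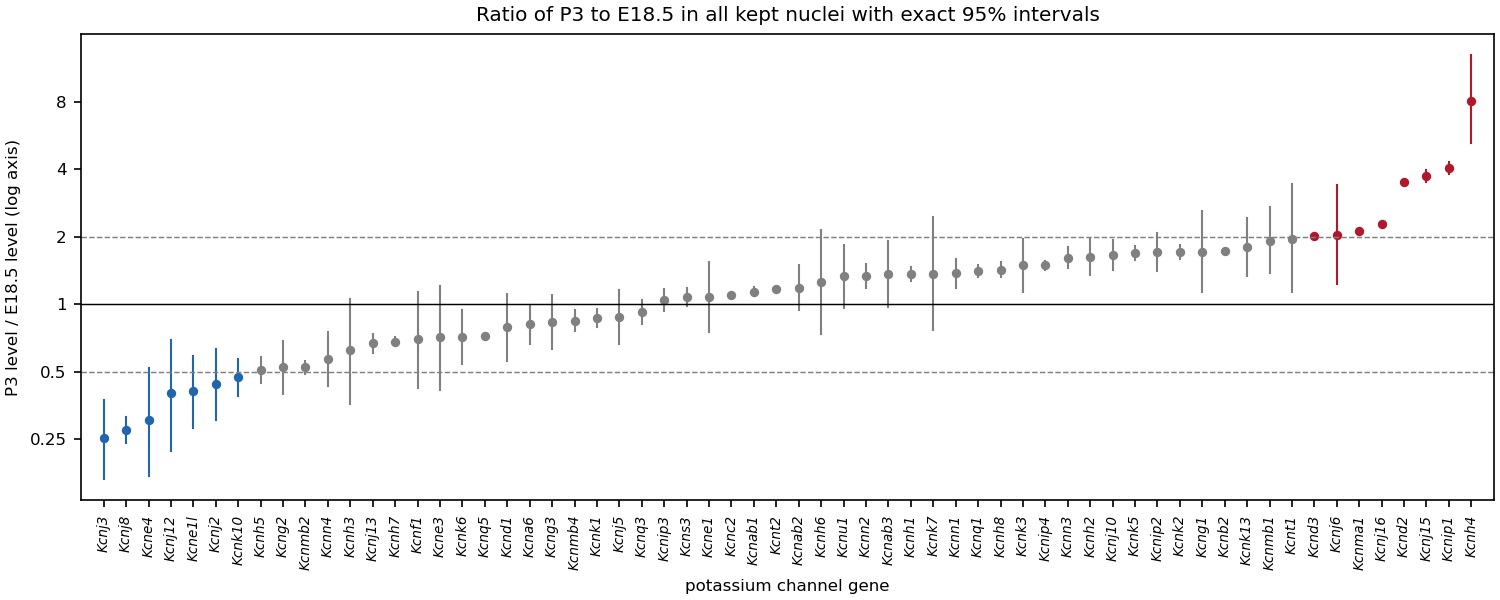
Ratio of the P3 to the E18.5 level over all kept nuclei for 62 members (log axis, with exact 95% intervals; red and blue mark ratios past the dashed 2-fold lines). Kcnh4 at 8.08 and Kcnj3 at 0.252 lie at the ends, and the median over the 66 members with enough UMIs is 1.22.

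Divided by gene length, Kcnj8 stood highest at E18.5 with 3.20 CPM per kb over all kept nuclei, followed by Kcnj13, an inward rectifier, at 2.56 and Kcnj16 at 1.71. At P3 Kcnj16 stood highest at 3.90, followed by Kcnj15 at 2.21 and Kcnd2 at 1.95. Kcnd2 had been at 0.555 at E18.5 on this scale, and Kcnb2 was at 0.868 and 1.5. All 8367 bases of Kcnj13 lie within Gigyf2 on the opposite strand.

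Subunits known to form complexes were detected together in some pairs. Each nucleus was thinned to 1000 UMIs, and the share of nuclei with the partner was compared between nuclei with and without the first gene, in the class where the first gene was highest. Of 8 pairs, 2 had intervals that did not overlap, at each age. In the interstitium 23.1% (17.5 to 29.4) of nuclei with Kcnj8 and 13.8% (12.8 to 14.8) of those without it carried Abcc9 at E18.5. At P3 the shares were 23.8% (12.1 to 39.5) and 7.38% (6.47 to 8.37). Kcnj8 was highest in the mural zone, and within it the intervals for this pair overlapped at both ages. There 47.8% (26.8 to 69.4) of nuclei with Kcnj8 and 55.4% (48.5 to 62.2) without it carried Abcc9 at E18.5. At P3 Abcc9 was carried there by 3 of 5 nuclei with Kcnj8 and 26 of 150 without it. The excess in the interstitium was thus not seen within this zone at E18.5, and its source was not tested. Kcnip1 was found in 10.0% (8.29 to 11.9) of interstitial nuclei with Kcnd3 and 1.89% of those without at E18.5, and in 25.3% (22.7 to 28.0) and 7.72% (6.58 to 8.99) at P3. Both genes were highest in the papillary zone, and within it the shares were 33.7% (27.0 to 40.9) and 18.6% (11.9 to 27.0) at E18.5 and 53.2% (43.4 to 62.8) and 28.9% (16.4 to 44.3) at P3, with intervals that met at 27.0% at E18.5 and overlapped at P3. In the proximal tubule Kcnj16 was carried by 32.5% of nuclei with Kcnj15 and 31.3% of those without at E18.5, and by 50.7% (45.5 to 55.8) and 42.5% (39.3 to 45.8) at P3. In the distal tubule Kcnj16 was carried by 33.3% (7.49 to 70.1) of 9 nuclei with Kcnj10 and 42.0% (34.0 to 50.3) of 150 without at E18.5, and by 44.0% (24.4 to 65.1) and 39.4% (29.7 to 49.7) at P3. The intervals of each comparison in the tubule overlapped at this thinning. Those for Kcnj15 and Kcnj16 at P3 did not overlap when nuclei were thinned to 2000 UMIs, left unthinned, or called doublets were kept. At E18.5 the intervals of this pair lay apart only without thinning. Kcne1 and Kcne3 with Kcnq1, and Kcnmb1 and Kcnmb4 with Kcnma1, also had overlapping intervals, with shares of at most 6.12%, so a difference was not detectable at this depth.

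Of 30 genes outside the rule that bind potassium channels or carry or regulate potassium, 26 reached 50 UMIs at E18.5 and 22 at P3. Of these, 7 and 9 had a class at least 2-fold above the next, where 17.8% and 22.3% of all genes did. Slc12a1, the sodium, potassium and chloride cotransporter of the loop, had 13512 and 11964 CPM there. The kinase gene Wnk1, whose kidney form acts in the distal tubule, had 2300 (2174 to 2431) and 4168 in that class. Dpp6, an accessory protein of A-type channels, stood at 553 in nephron progenitors at E18.5, 10.4 times the next class. In the papillary zone Dpp6 stood at 175 at E18.5 and 634 at P3, with at most 20.1 in the other zones at P3, and an unnamed P3 cluster of 775 nuclei had 589. Over all kept nuclei 3 of 26 partner genes were at least 2-fold higher at P3 (Slc12a1, Hcn3 and Slc12a7) and 3 lower (Abcc9, Kcnrg and Hcn4). Of all genes 5.17% were higher and 10.4% lower.

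The remaining 47 members, none of which met the rule for named genes, had between 0 and 1873 UMIs over both libraries. Beside those mentioned above they included Kcna2, Kcna3, Kcna4, Kcna5, Kcna6, Kcna7, Kcnab3, Kcnc1, Kcnc4, Kcnd1, Kcne2, Kcnf1, Kcng1, Kcng2, Kcng3, Kcng4, Kcnh3, Kcnh6, Kcnip2, Kcnj4, Kcnj5, Kcnj9, Kcnj14, Kcnk4, Kcnk7, Kcnk9, Kcnk12, Kcnk16, Kcnk18, Kcnmb3, Kcnn1, Kcns1, Kcns2, Kcns3, Kcnu1, Kcnv1 and Kcnv2. Among the named members, Kcna1 had 23 and 11 UMIs and Kcnj11, the other pore of ATP-sensitive channels, 20 and 14. Of the 92 members, 33 overlap another annotated gene and 8 of these a protein-coding gene on the opposite strand, and whether counting used strand is not given in the sources used here. A single unnamed cluster stood above the highest named class for 6 members at E18.5 and 7 at P3, so a leading class is the highest among named nuclei only. Likewise, an unnamed stromal cluster stood above the highest named zone for 10 of 30 members at E18.5 and 5 of 25 at P3. Of the members highest in the papillary zone, these were 1 of 8 at E18.5 and 2 of 9 at P3.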

How the data were processed

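Single-nucleus RNA was measured with a droplet 3' kit in 1 library per age. The authors deposited a matrix of UMI counts per gene and nucleus for each library, not normalized. The submitters' processing notes name Cell Ranger 5.0.1 and the build mm10, while the header of the E18.5 matrix names release 7.0.0 and that of the P3 matrix 5.0.1. The use of intronic reads and of strand is not given in the sources used here. Counting of unspliced reads would raise long genes, and different releases could change levels between the ages. Levels divided by gene length used the whole gene, and whether this makes 3' counts of different genes comparable was not tested.

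Nuclei below 699 UMIs or 647 genes at E18.5 and 461 UMIs or 515 genes at P3, or far above the median mitochondrial share (3 median absolute deviations and at least 0.5 percentage points), were left out, leaving 21270 of 21600 and 11765 of 12216 nuclei. Scrublet, run through scanpy 1.11.5 with an expected rate of 0.1, called 16.4% and 16.8% of these as doublets, which were removed. Size factors came from scran 1.30.0 (R 4.3.3), and nuclei were clustered by Walktrap (igraph 2.1.4, bluster 1.12.0) on 10 nearest neighbours, 50 principal components and 2000 variable genes, with all Kcn genes and the 30 partner genes left out. Clusters were named from lists of 8 markers, by rules set after the clusters were seen, and classes or zones under 50 nuclei were not used.

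Levels were computed from the deposited counts as sums per class divided by all UMIs of the class and scaled to 1000000 (CPM). No test was run, since each age was 1 library. Intervals are exact at the 95% level (scipy 1.17.1) and cover counting error only. Gene positions came from GENCODE M21, which held 32158 of 32285 identifiers and all 92 members, and promoters from RefSeq, GRCm38.p6. The computation of levels and ratios was tested on simulated counts. Members named with values had at least 100 CPM in a class or zone, a lead of at least 5-fold with 50 UMIs, one of the 5 highest or 5 lowest ratios between ages, a place among known kidney channels, or a place in a pair of subunits. The values of some members and partner genes are not reported here. Members, lists and pairs were chosen with earlier results of these data known. Alternatives covered doublets, clustering, scaling, minimum UMIs and thinning.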

Additional observations from a re-analysis of the deposited data

Results flagged for a closer look

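For 6 pairs of classes a member was at least 2-fold higher in one class at E18.5 and at least 2-fold lower in it at P3, with intervals on opposite sides of 1. The 27 of 864 pairs with intervals on opposite sides of 1 came from 15 members. Over all genes 0.878% of 419424 pairs had such intervals, and 0.0727% were also 2-fold both ways. The differences between the ages were not tested, since each age was 1 library. Kcnh7 in the loop of Henle against urothelium had a ratio of 3.52 (1.69 to 8.46) at E18.5, with 8 UMIs in urothelium, and 0.389 (0.292 to 0.520) at P3. Kcnab1 in the distal against the proximal tubule had 2.10 (1.35 to 3.18) and 0.336 (0.134 to 0.701), with 7 UMIs in the distal tubule at P3. Kcnn2 in the collecting duct against the interstitium had 2.92 (2.07 to 4.06) and 0.498 (0.236 to 0.931), with 10 UMIs in the collecting duct at P3. In the distal tubule against the interstitium it had 3.11 (1.70 to 5.31) and 0.286 (0.0773 to 0.739), with 4 UMIs in the distal tubule at P3. Kcnn3, a small-conductance calcium-activated channel outside the rule for named genes, had 3.20 (2.26 to 4.57) and 0.472 (0.249 to 0.834) in the collecting duct against endothelium, and 3.04 (2.34 to 3.91) and 0.371 (0.201 to 0.628) against the interstitium, with 14 UMIs in the collecting duct at P3.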

How the results depend on the processing

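Of the counts and sums that answer a comparison, 58 values under the alternatives stayed within 1.5 times or within their counting interval of the value reported and 21 moved; of the values for single members, 379 stayed, 135 moved and 3 that were at least 2-fold turned direction. These were the P3 to E18.5 ratio of Kcnk10, at 1.73 when classes were weighted equally, the early nephron to leukocyte ratio of Kcnq5 at P3, at 0.808 with called doublets kept, and the cortical to mural ratio of Kcnh2 at P3, at 0.955 with size factors. Where the reported ratio was under 2-fold, 33 of the values that stayed or moved lay on the other side of 1, 24 of them orders of classes or zones, such as those given above for Kcnb2, Kcnc2, Kcnq1 and Kcnj16, and 9 ratios between ages. When the lower bound also had to reach 2, members with a leading class numbered 11 at E18.5 and 13 at P3, and with a leading zone at P3 8. A minimum of 200 UMIs gave 17 leading classes and 7 leading zones at P3 and 2 members lower at P3, and a minimum of 10 gave 11 leading zones at E18.5. Leading zones at P3 numbered 9 with Leiden clusters, and, in alternatives chosen after seeing the data, 9 with unnamed clusters as groups of their own and 7 without the clusters added by their zone markers. With Leiden clusters, which gave no loop, distal tubule, collecting duct, tip, intercalated or urothelium class at E18.5, 25 of 53 members kept their highest class at E18.5 and 39 of 49 at P3. Weighting classes equally gave 5 members lower at P3. The summed level in the interstitium at E18.5 was 3747 with doublets kept, 3862 with Leiden clusters, 3602 with size factors, 2946 without the added clusters and 1230.2 without its 3 largest members. At P3 it was 7582 with Leiden clusters, 6763 with size factors, 6163 without the added clusters and 2067 without these members. Counts under a higher minimum or a stricter bound are lower by construction; the cause of the other moves was not tested. No paired analysis was possible because each age was 1 library. Levels from fewer than 10 UMIs have intervals several-fold wide, and shares of nuclei depend on depth.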
